A study of Mus musculus with 12 samples.

Results

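Interferon-stimulated genes are the genes that cells switch on when interferon reaches them. A set of 39 of them, named by their symbols, was followed in RNA-seq of periocular skin, comparing the skin around the eye of filaggrin-deficient mice with that of filaggrin-deficient mice that also lack MyD88. All 39 were among the 21247 genes of the count table, and all 39 reached the minimum of 10 counts summed over the 8 libraries, as did 20454 genes in all. There were 4 libraries labelled ft/ft, from mice homozygous for a mutation that arose spontaneously and disables filaggrin, a structural protein of the outer epidermis. Another 4 were labelled ft/ftMyD88-/-, from an in-house cross of ft/ft with whole-body MyD88-/- mice, so both groups carried the filaggrin mutation. MyD88 is an adaptor protein that carries the signal of IL-1 family receptors and of most toll-like receptors. All mice were on a BALB/c background, 6 weeks old, labelled female and kept under the same pathogen-free conditions, and a biopsy held every cell type of the eyelid region. The 4 WT samples of the series were not analysed here, so no level is set against normal skin. By the study's description each group had as many mice as libraries, although the labels number the libraries only as replicates.

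Type I interferons bind IFNAR1 and IFNAR2, and the kinases JAK1 and TYK2 then phosphorylate transcription factors of the STAT family. STAT2 and IRF9 are subunits of the resulting complex ISGF3, which binds the interferon-stimulated response element (ISRE) in the promoters of target genes. Interferon gamma acts on another element, the gamma-activated site (GAS), and is the stronger inducer of the guanylate-binding proteins. In skin, keratinocytes, fibroblasts and infiltrating leukocytes all respond to interferon, and plasmacytoid dendritic cells are a well-known source of the type I form. The interferon-stimulated genes sense viral nucleic acid, amplify the signal, or block viral entry, translation and assembly.

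Promoter sequence showed what many of these genes share. RefSeq promoter windows of GRCm38.p6, 250 bases before to 50 after each start, were found for 30 of the 39 genes. Zbp1, Mx1, Mx2, Parp14, Parp9, Oas2, Rtp4, Dhx58 and Usp18 were not matched. The ISRE core, GAAA followed by any 2 bases and a further GAAA, searched on both strands, was in the windows of 17 of the 30 genes (56.7%), against 3.99% of the 27025 genes of the promoter table. With the 250 bases before the start alone it was in 13 genes (43.3%), against 3.46%. The GAS letters, TTC followed by any 3 bases and GAA, also searched on both strands, were in 8 of the 30 (26.7%), against 9.55% of all genes. A match can overlap between the motifs, as it did in Bst2 and Ifitm3. The stretches below are shown because they carry these matches in genes of several roles. They come from the ISG15 precursor, an IFIT, a guanylate-binding protein, the neighbouring pair Oas1a and Oas1g, and the RNA sensors Ddx58 and Ifih1. Each is written 5′ to 3′ on the strand of its gene, and capitals mark the ISRE core or its reverse complement.
Isg15, chr4:156200840-156200919, minus strand: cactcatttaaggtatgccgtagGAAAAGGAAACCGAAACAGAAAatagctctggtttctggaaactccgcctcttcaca
Ifit1, chr19:34640769-34640848, plus strand: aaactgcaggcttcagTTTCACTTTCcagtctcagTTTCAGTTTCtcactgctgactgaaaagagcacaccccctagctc
Gbp7, chr3:142530248-142530327, plus strand: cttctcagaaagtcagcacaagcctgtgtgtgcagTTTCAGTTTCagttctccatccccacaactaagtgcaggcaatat
Oas1a, chr5:120907526-120907605, minus strand: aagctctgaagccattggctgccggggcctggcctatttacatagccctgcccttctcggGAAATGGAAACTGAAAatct
Oas1g, chr5:120887614-120887693, minus strand: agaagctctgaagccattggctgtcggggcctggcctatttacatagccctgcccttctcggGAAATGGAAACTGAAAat
Ddx58, chr4:40239804-40239833, minus strand: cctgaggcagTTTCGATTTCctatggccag
Ifih1, chr2:62646206-62646235, minus strand: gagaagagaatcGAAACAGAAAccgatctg
Isg15 held 3 overlapping cores, while Ifit1, Oas1a and Oas1g held 2 each. A match is a description of the letters and not a measured binding site.

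Total counts ranged from 15802957 to 29255129 per library. Values per library are given as CPM, counts brought to a common library size with edgeR's TMM factors, and 3 counts, the most that a count of 0 allows, equalled 0.102 to 0.183 CPM. Such limits cover counting error only. The libraries labelled ft/ftMyD88-/- held no less Myd88 RNA, at 41.2 ± 7.29 CPM (SD, n = 4) against 30.7 ± 4.74 in ft/ft, although counts over the whole gene cannot tell intact from deleted exons. Although every mouse was labelled female, Xist lay between 34.6 and 66.8 CPM in the libraries labelled ft/ftMyD88-/- and between 0 and 0.0429 in those labelled ft/ft. The summed level of 4 Y-linked genes was 0 to 1.31 CPM in the former and 132 to 164 in the latter. Sex and genotype therefore cannot be told apart in any value below. Skin markers were abundant in every library, with the summed level of 6 keratinocyte markers at 17033 CPM or above.

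Scaled with TMM, the interferon-stimulated genes showed no common direction between the genotypes, and their median change was close to that of all genes. Of the 39, 3 were called higher in ft/ftMyD88-/- (Zbp1, Mx1 and Mx2) and 4 lower (Ddx58, Irf9, Lgals3bp and Ifih1), where called means an adjusted p under 0.05 in edgeR's quasi-likelihood test. Among these genes only Ddx58 kept its call whichever library was left out, so both counts depended on single libraries. The called share was 17.9%, against 23.3% of all genes tested in either direction, 10.9% higher and 12.3% lower. Among the 14451 tested genes whose mean lay between the lowest and the highest mean of the 39, 28.1% were called. The median log2 fold change of the 39 was 0.01, and that of all genes was 0.01. Scaled by library size only, in place of TMM, both medians were 0.19, 4 of the 39 were higher and 0 lower, and over all genes 4638 were higher and 1326 lower, against 2239 and 2525 with TMM. The fitted value was above 0 for 20 of them and below 0 for 19. At an unadjusted p under 0.05 stood 9 of the 39, against 36.9% of all genes. Only Ifih1 and Ddx58 had groups that did not overlap, both with the lower values in ft/ftMyD88-/-, while 26.7% of all genes had such groups.

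Differences were also small in size. The absolute log2 fold change was under 0.5 for 35 of the 39 (89.7%), against 67.0% of all genes tested. It was 1 or more for 2 genes, Mx1 and Mx2, against 13.7% of all genes. The median absolute log2 fold change was 0.21 for the 39 and 0.31 for all genes, although the median standard error of the 39, 0.21, was above the 0.17 of all genes. For 29 of the 39 the 95% interval of the log2 fold change lay wholly between -1 and 1. A missed threshold in the remaining genes does not show equal levels, and their intervals are given with them.

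**Figure D1:**
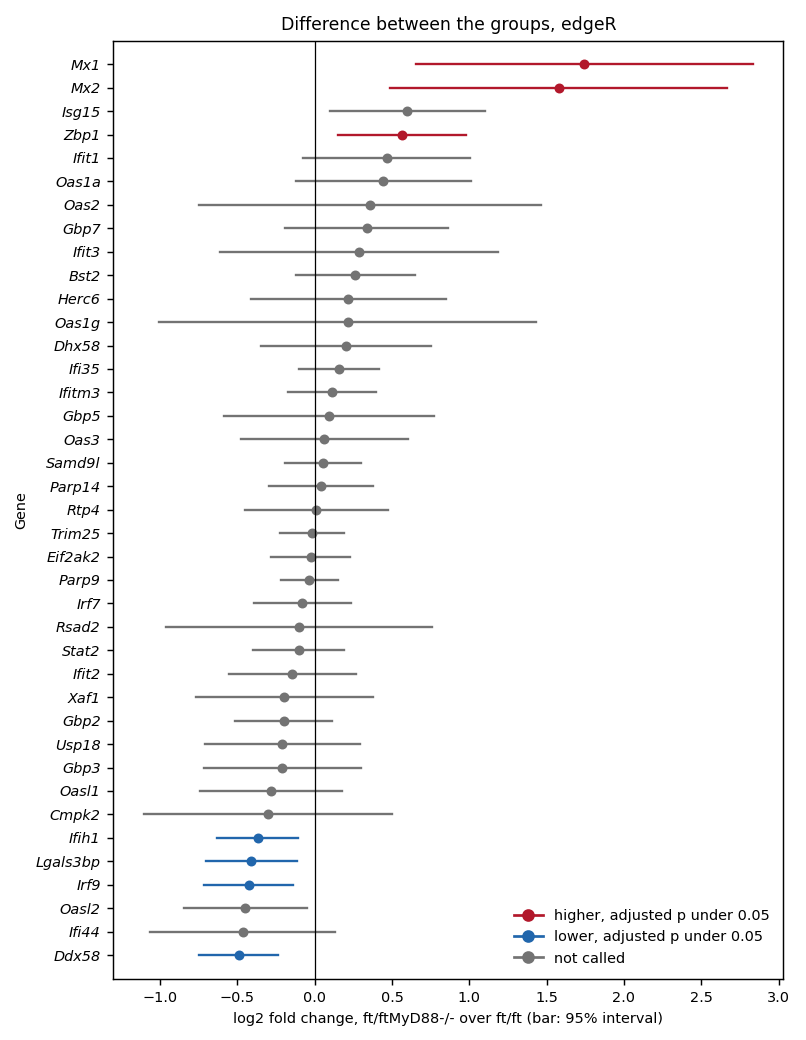
Log2 fold change of each of the 39 interferon-stimulated genes, ft/ftMyD88-/- over ft/ft, with its 95% interval from edgeR's fit (4 libraries per group). Mx1 and Mx2 stand at the top with wide intervals, and most other genes lie within 0.5 of 0.

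**Figure D2:**
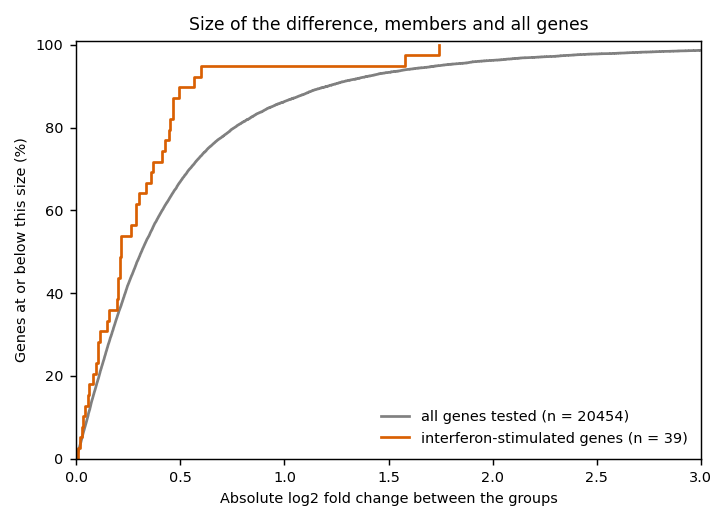
Share of genes (percent) at or below each absolute log2 fold change, for the 39 interferon-stimulated genes and for the 20454 genes tested. The curve of the 39 genes lies above that of all genes over most of the range, with 89.7% against 67.0% at 0.5.

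Among the nucleic acid sensors, the RNA helicases Ddx58 and Ifih1 were lower in ft/ftMyD88-/- and Zbp1 was higher. Ddx58 encodes RIG-I, which detects short viral RNA with a free 5′ triphosphate (chromosome 4, 40203777 to 40239825, GRCm38.p6). Its CPM was 16.5, 21.8, 19.6 and 19.1 in replicates 1 to 4 of ft/ft and 14.6, 14.3, 14.3 and 11.6 in those of ft/ftMyD88-/-. Every ft/ft library lay above every ft/ftMyD88-/- library. The log2 fold change was -0.49 ± 0.12 (SE, 95% interval -0.75 to -0.23, edgeR adjusted p = 0.0107), and Ddx58 was the 1 gene of the 7 called that kept its call whichever library was left out (adjusted p 0.00834 to 0.0349). It was lost when counts were scaled by library size only (adjusted p = 0.0766).

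Ifih1 encodes MDA5, the sensor of long double-stranded RNA (chromosome 2, 62595618 to 62646255). It stood at 31.1, 29.6, 35.9 and 32.6 CPM in ft/ft, against 29.4, 22.4, 27.1 and 20.8 in ft/ftMyD88-/-. The groups were barely apart, since replicate 1 of ft/ftMyD88-/- nearly reached replicate 2 of ft/ft. Its log2 fold change was -0.37 ± 0.12 (95% interval -0.63 to -0.11, edgeR adjusted p = 0.0432). The call was kept without ft/ft replicate 2 or ft/ftMyD88-/- replicate 1 and lost without any other library (adjusted p 0.0519 to 0.119). It was also lost with RLE scaling and with library size only. The third helicase of the family, Dhx58 (LGP2), which modulates the other two, ranged from 1.85 to 2.42 CPM in ft/ft, against 1.58 to 3.67 in ft/ftMyD88-/- (log2 fold change 0.20, 95% interval -0.35 to 0.75, edgeR adjusted p = 0.609). Dhx58 groups overlapped fully.

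Zbp1 binds nucleic acid in the Z conformation and can trigger necroptosis (chromosome 2, 173206612 to 173218959). It was measured at 2.91, 3.38, 4.13 and 3.68 CPM in ft/ft, against 3.64, 6.06, 5.61 and 5.49 in ft/ftMyD88-/-. Replicates 2, 3 and 4 of ft/ftMyD88-/- exceeded all ft/ft libraries, while replicate 1 lay within their range. The log2 fold change was 0.56 ± 0.19 (95% interval 0.15 to 0.98, edgeR adjusted p = 0.0491). That call was kept without ft/ftMyD88-/- replicate 1 alone and lost without any other library (adjusted p 0.0536 to 0.123). It was also lost with upper-quartile scaling, limma voom and robust = FALSE. Eif2ak2 encodes PKR, the kinase that halts translation on double-stranded RNA, and differed little between the groups, at 18.3 ± 2.41 CPM and 18 ± 1.44 (SD, n = 4). Its log2 fold change was -0.03, with a 95% interval of -0.28 to 0.23.

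The factors that carry the interferon signal into the nucleus showed a lower Irf9 and no called change in Stat2 or Irf7. Irf9, the DNA-binding subunit of ISGF3 (chromosome 14, 55603985 to 55610030), was at 26.2, 29.6, 40.7 and 34 CPM in ft/ft, against 22.7, 22.4, 27.4 and 24.3 in ft/ftMyD88-/-. Replicate 3 was the highest library of each group, and the groups overlapped at ft/ft replicate 1. Irf9 was lower by a log2 fold change of -0.43 ± 0.13 (95% interval -0.72 to -0.14, edgeR adjusted p = 0.0355). The call was kept without ft/ft replicate 1, ft/ft replicate 2 or ft/ftMyD88-/- replicate 3 and lost without any other library (adjusted p 0.0759 to 0.106). It was also lost with library size only.

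Stat2, its partner in ISGF3, was measured at 19.8, 26.8, 24.4 and 27.4 CPM in ft/ft, against 19.6, 22.3, 28.3 and 21.2 in ft/ftMyD88-/- (log2 fold change -0.10, 95% interval -0.40 to 0.19). Irf7, the factor that amplifies transcription of type I interferon genes, stood at 15.3, 16.2, 24.7 and 20.01 CPM in ft/ft. In ft/ftMyD88-/- it was at 17.5, 17.3, 19.8 and 17.3 (log2 fold change -0.08, 95% interval -0.39 to 0.23). The Irf7 values of ft/ftMyD88-/- all lay inside the ft/ft range, and those of Stat2 ran just past both of its ends.

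Isg15 and the genes of its conjugation gave no call. Isg15 encodes a ubiquitin-like modifier (chromosome 4, 156199424 to 156200818) whose promoter stretch is printed above. Its CPM was 8.79, 5.96, 10.8 and 9.55 in ft/ft and 18.7, 10.0, 10.2 and 14.1 in ft/ftMyD88-/-. Replicates 1 and 4 of ft/ftMyD88-/- exceeded every ft/ft library, and replicates 2 and 3 lay within the ft/ft range. The log2 fold change of 0.60 (95% interval 0.10 to 1.1) missed the threshold with an edgeR adjusted p of 0.0813, and over the alternatives the adjusted p ran from 0.0257 to 0.192. Usp18, which removes ISG15 from proteins and dampens IFNAR signalling, was at 2.58 ± 0.524 CPM in ft/ft, against 2.20 ± 0.618 in ft/ftMyD88-/-. Herc6, the mouse ISG15 ligase, was at 1.88 ± 0.493 and 2.15 ± 0.843 CPM. Trim25, a ubiquitin ligase that acts on RIG-I, was at 63.7 ± 7.17 and 62.9 ± 3.87 CPM, with a 95% interval of the log2 fold change of -0.22 to 0.19.

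The OAS family makes or resembles the enzymes that make 2′-5′ oligoadenylate, the activator of RNase L, and none of its 6 genes was called. Oas1a was at 2.23, 2.40, 5.30 and 4.37 CPM in ft/ft, against 4.16, 5.36, 5.34 and 4.39 in ft/ftMyD88-/- (log2 fold change 0.44, 95% interval -0.12 to 1.01, edgeR adjusted p = 0.244). The ft/ft libraries split into a lower pair, replicates 1 and 2, and a higher pair that lay at the ft/ftMyD88-/- level. Its neighbour Oas1g followed the same split in ft/ft, at 0.214, 0.364, 1.51 and 1.11 CPM (95% interval of the log2 fold change -1.01 to 1.43). Of the 50-base sequences in Oas1a transcripts, 57.6% also occur in another gene, and 45.7% of those in Oas1g do, so counts of this pair are uncertain where the counting set aside or split shared reads. In ft/ft replicate 1, Oas2 had 0.0857 CPM, below the limit of 3 counts, and the rest of that group had 0.844 to 1.51. In ft/ftMyD88-/- Oas2 ranged from 0.854 to 1.32 (log2 fold change 0.36, 95% interval -0.75 to 1.46). Oas3 was at 1.77 ± 0.449 and 1.82 ± 0.410 CPM.

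The products of the OAS-like genes bind RNA but include members without synthetase activity. Both had fitted values below 0 without a call, and no difference from the OAS genes was tested. Oasl2 was at 9.64, 13.7, 15.0 and 13.8 CPM in ft/ft, against 10.6, 8.56, 12 and 6.83 in ft/ftMyD88-/- (log2 fold change -0.45, 95% interval -0.85 to -0.05, edgeR adjusted p = 0.0961). Replicate 1 was the lowest ft/ft library, and without it Oasl2 passed the threshold (adjusted p = 0.0422, range over the alternatives 0.0422 to 0.323). Oasl1 was at 6.35 ± 1.77 and 5.21 ± 1.06 CPM (log2 fold change -0.29, 95% interval -0.75 to 0.17).

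In the IFIT family, which binds viral RNA that lacks host cap methylation, none of the 3 genes was called. Ifit1 stood at 4.20, 4.76, 5.52 and 4.68 CPM in ft/ft, against 5.43, 3.93, 10.1 and 6.89 in ft/ftMyD88-/-. Ifit3 was at 2.87, 3.42, 4.46 and 4.60 CPM in ft/ft, against 1.93, 3.38, 8.74 and 4.51 in ft/ftMyD88-/-. Replicate 3 of ft/ftMyD88-/- was the highest of all 8 libraries for both genes. Their log2 fold changes were 0.47 (95% interval -0.07 to 1.01) and 0.29 (95% interval -0.61 to 1.19). Without that library the values were 0.18 for Ifit1 and -0.23 for Ifit3. Without ft/ftMyD88-/- replicate 2 instead, Ifit1 was called higher (edgeR adjusted p = 0.0486). Of the 50-base sequences of Ifit3, 51.2% also occur in another gene, chiefly its near-copy Ifit3b. Ifit2 was at 9.41 ± 1.75 and 8.48 ± 2.19 CPM, with a log2 fold change of -0.15 (95% interval -0.56 to 0.27).

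The Mx GTPases had the largest fold differences of the 39 and, in ft/ft, the lowest CPM. Mx1, a gene of a dynamin-like GTPase (chromosome 16, 97447035 to 97462906), was at 0.0857, 0.218, 0.725 and 0.575 CPM in ft/ft, from 2, 6, 13 and 15 counts. In ft/ftMyD88-/- it reached 1.84, 1.21, 1.5 and 0.610 CPM. Replicates 1, 2 and 3 of ft/ftMyD88-/- lay above every ft/ft library, while replicate 4 fell within the ft/ft range. Its log2 fold change was 1.74 ± 0.499 (95% interval 0.66 to 2.83, edgeR adjusted p = 0.0256). The call was lost without ft/ft replicate 2, ft/ftMyD88-/- replicate 1 or ft/ftMyD88-/- replicate 3 (adjusted p 0.0509 to 0.0694). It was also lost with the replicate block.

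Mx2, its cytoplasmic relative (chromosome 16, 97536081 to 97560901), was at 0.129, 0.364, 0.725 and 0.115 CPM in ft/ft, from 3, 10, 13 and 3 counts. In ft/ftMyD88-/- it was at 0.701, 0.845, 1.46 and 0.732 CPM. The groups overlapped only at ft/ft replicate 3 and ft/ftMyD88-/- replicate 1. Its log2 fold change was 1.58 ± 0.501 (95% interval 0.49 to 2.67, edgeR adjusted p = 0.0393), and the call was kept without ft/ft replicate 3 or ft/ftMyD88-/- replicate 1 and lost without any other library (adjusted p 0.0592 to 0.111). Per kilobase of exon, Mx1 and Mx2 were the lowest of the 39 in ft/ft, at 0.106 and 0.0922 CPM per kb.

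**Figure D3:**
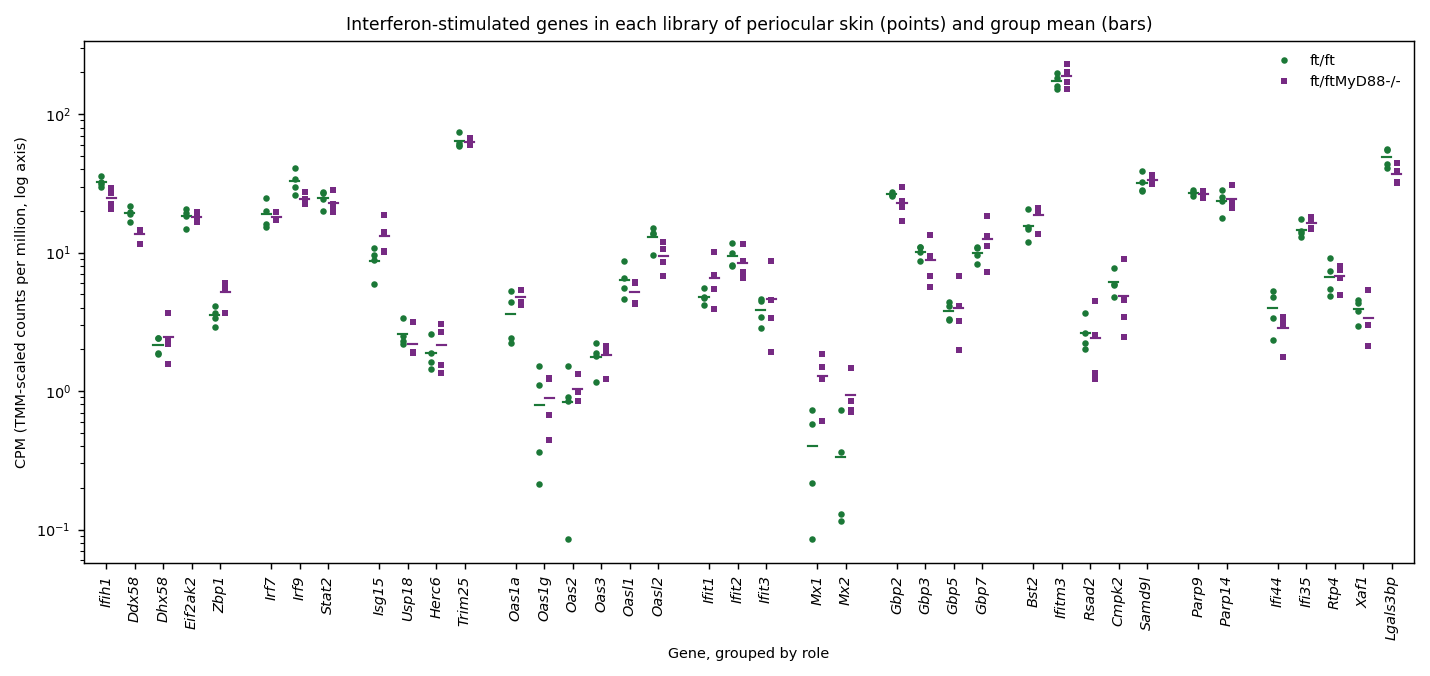
CPM (log axis) of each of the 39 interferon-stimulated genes in the 4 libraries labelled ft/ft and the 4 labelled ft/ftMyD88-/-, with bars at the group means, genes grouped by role. Values run from 0.0857 CPM for Mx1 and Oas2 in ft/ft replicate 1 to over 150 CPM for Ifitm3 in every library, and the groups overlap for all genes but Ddx58 and Ifih1.

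The guanylate-binding proteins, large GTPases that attack pathogen vacuoles and assemble on bacteria, gave no call among 4 genes. Gbp2 was at 25.6, 25.9, 27.3 and 26.3 CPM in ft/ft, against 16.8, 21.5, 29.7 and 23.5 in ft/ftMyD88-/-. Gbp3 was at 10.9, 8.69, 11 and 10.1 CPM in ft/ft, against 5.65, 6.72, 13.3 and 9.39 in ft/ftMyD88-/-. In both genes replicate 1 was the lowest and replicate 3 the highest library of ft/ftMyD88-/-, on either side of the ft/ft range. Gbp5 was at 4.11, 3.31, 3.24 and 4.37 CPM in ft/ft, against 1.97, 3.20, 6.74 and 4.09 in ft/ftMyD88-/-. Gbp7 was at 8.27, 9.64, 10.8 and 10.9 CPM in ft/ft, against 7.19, 11.1, 18.5 and 13.1 in ft/ftMyD88-/-. These genes had the same lowest and highest ft/ftMyD88-/- libraries. Log2 fold changes were -0.20, -0.21, 0.09 and 0.34 for Gbp2, Gbp3, Gbp5 and Gbp7, and the 95% interval of each contained 0 (lowest bound -0.72, highest 0.86).

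Of the other antiviral effectors none was called. Ifitm3, which stops viruses from fusing in endosomes, was the most abundant of the 39 both in CPM (173 ± 20.1 and 187 ± 34) and per kilobase of exon (255 and 276 CPM per kb in ft/ft and ft/ftMyD88-/-). Its log2 fold change was 0.11 (95% interval -0.17 to 0.40). Bst2, or tetherin, which holds budding virions at the membrane, was at 14.8, 11.9, 20.6 and 15.2 CPM in ft/ft, against 13.5, 20.8, 20.7 and 19.6 in ft/ftMyD88-/- (log2 fold change 0.26, 95% interval -0.12 to 0.65). Rsad2, which encodes viperin, and its neighbour Cmpk2, a nucleotide kinase, both peaked in ft/ftMyD88-/- replicate 3, at 4.49 and 9.05 CPM. Their lowest ft/ftMyD88-/- library was replicate 1, at 1.23 and 2.45 CPM. Without replicate 3, Cmpk2 went from a log2 fold change of -0.30 (95% interval -1.11 to 0.50, edgeR adjusted p = 0.591) to -0.79 (adjusted p = 0.0325, range over the alternatives 0.0325 to 0.889). Samd9l, a restriction factor of poxviruses, was at 32.0 ± 5.10 and 33.3 ± 2.06 CPM, with a 95% interval of -0.19 to 0.30.

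Both ADP-ribosyltransferases were close to equal in the groups. Parp9, which acts in a complex with DTX3L, had the narrowest interval of the 39, at 27.0 ± 1.06 and 26.4 ± 1.18 CPM (log2 fold change -0.03, 95% interval -0.22 to 0.15). Parp14, a mono-ADP-ribosyltransferase, was at 23.7 ± 4.49 and 24.4 ± 4.41 CPM (log2 fold change 0.04, 95% interval -0.30 to 0.38).

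Lgals3bp was the gene called among the remaining 5. It encodes a secreted glycoprotein that binds galectins (chromosome 11, 118392747 to 118401959), and it was at 44.0, 41.0, 55.9 and 55.5 CPM in ft/ft, against 32.2, 39, 44.4 and 31.8 in ft/ftMyD88-/-. Replicate 3 of ft/ftMyD88-/- overlapped the lower pair of ft/ft libraries, and the other ft/ftMyD88-/- libraries lay below all of ft/ft. Its log2 fold change was -0.41 ± 0.14 (95% interval -0.71 to -0.12, edgeR adjusted p = 0.0455). The call was kept without ft/ft replicate 1, ft/ft replicate 2 or ft/ftMyD88-/- replicate 3 and lost without any other library (adjusted p 0.0667 to 0.132). It was also lost with library size only, upper-quartile scaling, limma voom, filterByExpr and robust = FALSE. Ifi44, a cytoplasmic antiviral protein, was at 3.39, 2.33, 5.30 and 4.79 CPM in ft/ft, against 1.75, 3.20, 3.4 and 2.99 in ft/ftMyD88-/- (log2 fold change -0.47, 95% interval -1.06 to 0.13, edgeR adjusted p = 0.245). Ifi35, a leucine zipper protein, was at 14.6 ± 1.91 and 16.3 ± 1.55 CPM. Rtp4, a receptor transporter protein, was at 6.72 ± 1.94 and 6.75 ± 1.36 CPM, and the pro-apoptotic Xaf1 at 3.91 ± 0.723 and 3.37 ± 1.40.

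Of the 7 genes called, Ddx58 and Ifih1 had an ISRE core in the promoter window, in both cases after the start and so outside the 250 bases before it. Irf9 and Lgals3bp had no match to these letters. Zbp1, Mx1 and Mx2, the genes called higher, had no promoter window and so were not searched.

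Within each group, many of the genes shared their highest and lowest libraries. Replicate 3 was the highest ft/ft library for 24 of the 39 genes and replicate 1 the lowest for 19. In ft/ftMyD88-/-, replicate 3 was the highest for 20 and replicate 1 the lowest for 20. The same order was not counted over all genes, so it is not shown to be particular to the 39. The summed level of the 39 genes was 618, 686, 753 and 673 CPM in ft/ft and 592, 703, 717 and 654 CPM in ft/ftMyD88-/-, so the groups overlapped and their extremes lay within each group. The median deviation from the group mean, on the log2 CPM scale with 0.1 added, is given for the roles with the widest values. In ft/ftMyD88-/- the guanylate-binding proteins deviated by 0.66 in replicate 3 and by -0.63 in replicate 1, and the IFIT genes by 0.70 and -0.34. In ft/ft the guanylate-binding proteins stayed between -0.10 and 0.09, while the Mx GTPases deviated by 1.05 in replicate 3 and by -0.95 in replicate 1, and the OAS family by 0.50 and -0.55. The -0.95 rests on 2 counts of Mx1 and 3 of Mx2, at or below the limit of 3 counts. The summed level of the 4 guanylate-binding proteins was 47.5 to 52.3 CPM in ft/ft and 31.6 to 68.2 CPM in ft/ftMyD88-/-. Of the 39 genes, 21 had the larger SD of log2 CPM in ft/ftMyD88-/-, and whether the spread differed between genotypes was not tested.

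**Figure D4:**
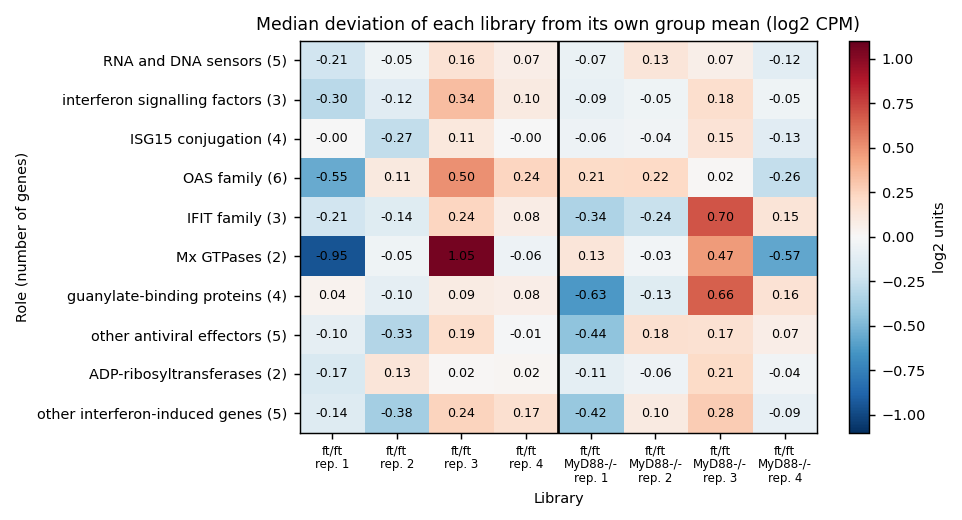
Median deviation of each library from its own group mean (log2 CPM, colour and printed value) for each role, with the number of genes in brackets. Replicate 3 is above its group mean in every row of both groups, and the widest values are those of the Mx GTPases in ft/ft, 1.05 and -0.95. The -0.95, in replicate 1, rests on 2 counts of Mx1 and 3 of Mx2.

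The upstream part of the pathway was read from gene lists, each counted against the 10.9% higher and 12.3% lower of all genes tested. Of 21 interferon ligand genes listed, only Ifng was in the table. It had 0 counts in every ft/ft library and at most 1 in any ft/ftMyD88-/- library, below the limit that a count of 0 allows. No level can be stated for the other ligands. The table did hold 32 genes without a count, so absence from it is not a count of 0. Of 6 receptor genes, 1 was lower and none higher. That gene was Ifnlr1, the interferon lambda receptor of epithelial cells, at 12.3 ± 0.950 CPM in ft/ft against 9.01 ± 0.913 in ft/ftMyD88-/- (log2 fold change -0.45, edgeR adjusted p = 0.0176). Ifnar1 was at 40.0 ± 1.67 and 46.0 ± 3.82 CPM (log2 fold change 0.20, edgeR adjusted p = 0.104) and Ifnar2 at 12.8 ± 1.37 and 13.6 ± 1.35. Scaled by library size only, 3 receptors were higher and 0 lower, while 1 was lower with every other scaling, tool or filter tried and with the replicate block.

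Among 17 JAK-STAT and IRF factors, 3 were higher and 2 lower. The higher genes were Irf8, a factor of myeloid and dendritic cells (log2 fold change 0.87, adjusted p = 7.04e-04), and the feedback inhibitors Socs1 (0.79, adjusted p = 0.00396) and Socs3 (0.55, adjusted p = 0.0123), all by edgeR. The lower ones were the kinase Jak1 (log2 fold change -0.32, edgeR adjusted p = 0.0261) and the repressor Irf2 (-0.27, adjusted p = 0.0373), named because they complete the count. The count became 8 higher and 0 lower with library size only, and 5 higher and 2 lower with DESeq2, and without 1 library it ran from 3 to 4 higher and from 0 to 2 lower. Of 17 genes of nucleic acid sensing upstream of interferon, 7 were higher and 2 lower. The 3 with the smallest adjusted p were Aim2, a DNA sensor of the inflammasome (log2 fold change 1.85), Rnaseh2b, a subunit of RNase H2 (0.62), and Mb21d1, which encodes the DNA sensor cGAS (0.56). The lower ones were Mavs, the adaptor below RIG-I and MDA5 (-0.35, edgeR adjusted p = 0.0190), and the endosomal RNA receptor Tlr3 (-0.47, adjusted p = 0.0103), both named after their values were seen. With library size only, 9 were higher and 0 lower.

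A further 57 type I interferon-stimulated genes gave 12 higher and 13 lower, with a median log2 fold change of 0.01. This split depended on the fit, with 17 higher and 4 lower for library size only and 6 and 9 with the replicate block. Without 1 library it ran from 5 to 13 higher and from 5 to 12 lower. The called share of the 57 genes was 43.9%, against 23.3% of all genes tested and 17.9% of the 39. Groups did not overlap for 10 with higher and 12 with lower values in ft/ftMyD88-/-, against 12.5% and 14.2% of all genes. The 3 with the smallest adjusted p were Ly6e (296 ± 17.4 CPM in ft/ft, 142 ± 12.3 in ft/ftMyD88-/-, log2 fold change -1.06), Epsti1 (1.22) and Slfn9 (1.01). Of 29 genes linked to interferon gamma, 2 were higher and 3 lower, with a median of 0.07. The lower ones were Gbp10, another guanylate-binding protein (log2 fold change -1.45, edgeR adjusted p = 5.89e-04), and the peptide transporter genes Tap2 (-0.43) and Tap1 (-0.26). The higher ones were the chemokine gene Cxcl10 (1.46, edgeR adjusted p = 0.0441), at or under 60 counts in every library, and Ciita, the regulator of MHC class II genes (0.54, adjusted p = 0.0412). Without 1 library, 0 to 4 of the 29 were higher and 2 to 5 lower, and with library size only 3 were higher and 1 lower.

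Markers of some cell types were called far more often than the 23.3% of all genes, and those of others were not. In bulk tissue, fewer cells of a type and less RNA per cell cannot be told apart. Beside the higher Zbp1, Mx1 and Mx2, 4 of 5 pan-leukocyte markers were higher in ft/ftMyD88-/-, with a summed level of 133 to 166 CPM in ft/ft and 171 to 243 in ft/ftMyD88-/-. None of the 5 was at 0 in any library. Of 11 T cell and NK cell markers, 10 were higher, with a summed level of 15.8 to 23.2 against 31.1 to 40.2 CPM, and Cd8a, Gzmb and Klrb1c were at 0 counts in 1 ft/ft library each. Of 9 macrophage and monocyte markers, 2 were higher and none lower. Of 6 neutrophil markers tested, 1 was called higher (Csf3r, log2 fold change 1.42), and their summed level was 21.7 to 250.2 CPM in ft/ft and 399 to 959 in ft/ftMyD88-/-. Most of the sum came from S100a8 and S100a9 in every ft/ftMyD88-/- library and in ft/ft replicate 2. The other ft/ft libraries lay at or below 36.5 CPM. S100a8 and S100a9 had log2 fold changes of 3.22 each (edgeR adjusted p = 0.126 and 0.123). In ft/ft the keratinocyte marker Krt16 was also highest in replicate 2, at 253 CPM against 46.9 to 67.2. Which cells held the S100a8 and S100a9 RNA was not tested, so their sum is not a measure of neutrophils alone. The listed neutrophil markers Ly6g and Retnlg were not in the table. None of 4 hyperproliferative keratinocyte markers was called, although Krt16 had a log2 fold change of 2.58 (edgeR adjusted p = 0.0530) and groups that did not overlap. Of 7 plasmacytoid dendritic cell markers, 1 was higher (Klk1, log2 fold change 3.23) and 2 lower (Ccr9, -1.81, and Cox6a2, -1.11, which muscle also expresses). Klk1 had 0, 5, 1 and 3 counts in replicates 1 to 4 of ft/ft, so the size of its fold is uncertain. The defining marker Siglech was at 3.55 ± 0.621 CPM in ft/ft, against 2.50 ± 0.820 in ft/ftMyD88-/- (edgeR adjusted p = 0.161). Ly6d (507 to 755 CPM over all libraries) and Tcf4 (74.6 to 120) stood far above it. Which cells held their RNA was not tested, so the count over this list is not a measure of plasmacytoid dendritic cells alone. All 6 proliferation markers were higher. Beside the lower Ddx58, Ifih1, Irf9 and Lgals3bp, 7 of 10 skeletal muscle markers (summed level 9692 to 13564.5 CPM in ft/ft and 3814 to 7285 in ft/ftMyD88-/-) and 6 of 8 sebocyte markers (17557 to 19837 and 9889 to 15133) were lower. So were 3 of 6 fibroblast markers (Col1a1, log2 fold change -1.60, Col1a2, -1.49, and Col3a1, -1.1), 2 of 6 keratinocyte markers (Krt5, -0.67, and Krt10, -0.58) and 2 of 6 endothelial markers, with 1 endothelial marker higher. The part of these shifts in the result was not tested.

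**Figure D5:**
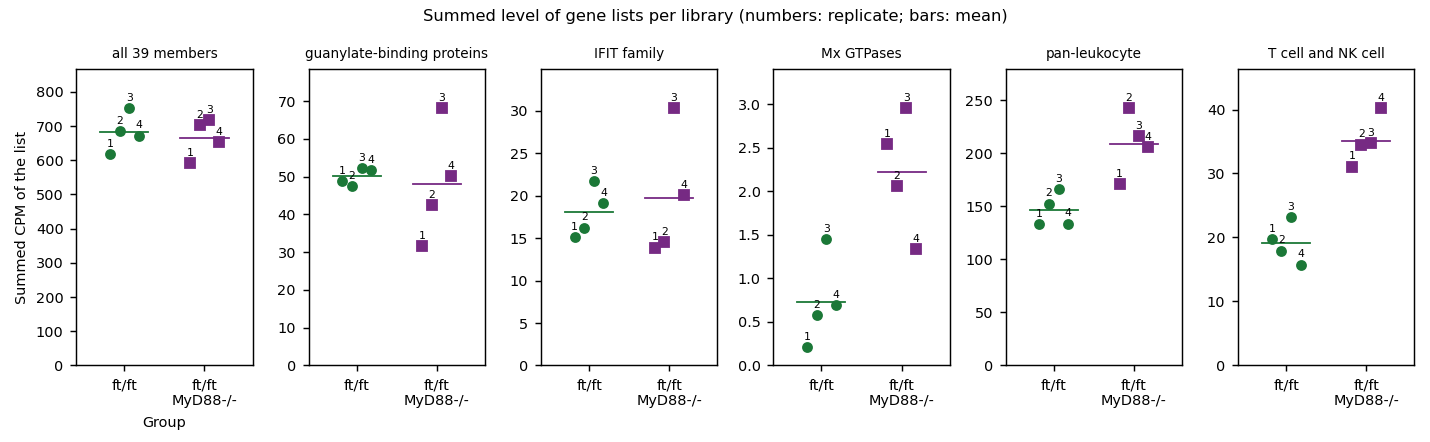
Summed CPM per library (numbers give the replicate, bars the mean) for all 39 interferon-stimulated genes, 3 of their families and 2 lists of immune cell markers. The sum over the 39 genes overlaps between groups (618 to 753 in ft/ft, 592 to 717 in ft/ftMyD88-/-), while the leukocyte and T cell and NK cell sums do not.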

How the data were processed

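RNA of periocular skin biopsies was measured in 8 libraries, 4 per genotype label (ft/ft or ft/ftMyD88-/-). The authors deposited raw counts per gene in 1 table without normalization. The study's methods section names a polyA-selecting TruSeq kit, single-end reads, alignment by HISAT and tophat2 to GRCm38.p6 and HTSeq at its defaults, but the submitters' processing notes for these samples name Cell Ranger and GRCm38, and their labels give total RNA and a protocol for fixed tissue. Which of these made the deposited counts was not settled, and versions, annotation release and strand setting are not given in the sources used here. How this affects the counts was not tested.

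Genes with at least 10 counts summed over 8 libraries entered the quasi-likelihood test of edgeR 4.0.16 under R 4.3.3 (glmQLFTest on a robust glmQLFit, two-sided), with TMM normalization, no covariate and Benjamini-Hochberg adjustment over all 20454 genes at 0.05. The biological coefficient of variation was 0.182. Standard errors came from the fold change and the F value, and 95% intervals used the degrees of freedom of the test. Coordinates and promoter windows came from RefSeq (GRCm38.p6), and exon lengths and shared 50-base sequences from GENCODE M21. The members and lists were chosen with earlier results of these data known. All 39 genes were named by role, with values in every library for those past the threshold or on which a role turns, and from each pathway list the 3 genes with the smallest adjusted p past the threshold. Alternatives were RLE, upper-quartile and library-size scaling, DESeq2 1.42.0, limma 3.58.1 voom, filterByExpr, no filter, robust = FALSE, a replicate block, each library left out, an adjusted p under 0.01 and a log2 fold change of 1 or more in either direction. No replicate pair agreed within sampling noise. On data simulated for ft/ftMyD88-/- against ft/ft, 20163 genes were tested. Of 100 genes changed 2-fold 87 were called, of 100 changed 4-fold 99, and 18 unchanged genes were called. The changed genes were drawn from those averaging at least 50 counts per library. These rates therefore do not cover genes with fewer counts, such as Mx1, Mx2, Oas1g and Oas2.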

Additional observations from a re-analysis of the deposited data

Results flagged for a closer look

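Within a group of 4 libraries, 1 library stood far from the others for 4 of the 78 gene and group combinations examined, and chance alone gives about 1 in 20. All 4 lay in ft/ftMyD88-/-. Ddx58 was at 11.6 CPM in replicate 4 and at 14.3 to 14.6 in the others. Irf7 was at 19.8 CPM in replicate 3 and at 17.3 to 17.5 in the others. Usp18 was at 3.13 CPM in replicate 3 and at 1.88 to 1.91 in the others. Bst2 was at 13.5 CPM in replicate 1 and at 19.6 to 20.8 in the others.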

How the results depend on the processing

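Over the 17 alternative fits, 575 values of the 39 genes kept their direction and their side of the threshold, 45 values of 7 genes lost a call, 7 values of 4 genes gained one and 36 values of 16 genes that were not called changed sign. Without 1 library, the number called higher ran from 0 to 2 and the number called lower from 1 to 4. At an adjusted p under 0.01 it was 0 in both directions (all genes 951 and 1350), and at a log2 fold change of 1 or more in size it was 2 higher and 0 lower. Scaling by library size only moved the median of all genes to 0.19, with 4638 genes higher and 1326 lower, and gave 4 of the 39 higher and 0 lower. DESeq2 called 4 in each direction. Zbp1 also lost its call under upper-quartile scaling, voom and robust = FALSE (adjusted p 0.0523 to 0.0543), Lgals3bp under those and filterByExpr (0.0513 to 0.0580), and Ifih1 under RLE (0.0505). Isg15 was called with library size only (adjusted p = 0.0257), DESeq2 (0.0379) and without ft/ftMyD88-/- replicate 3 (0.0481), and Ifit1 without ft/ftMyD88-/- replicate 2 (0.0486). Log2 fold changes that turned above 0 with library size only were Eif2ak2 0.15, Irf7 0.096, Stat2 0.073, Trim25 0.16, Ifit2 0.032, Rsad2 0.080 and Parp9 0.14. Gbp5 turned to -0.018 with voom and -0.019 with the replicate block. With 1 library left out in turn, the sign of some genes depended on the library, and their log2 fold changes ran from -0.070 to 0.37 for Dhx58, from -0.11 to 0.034 for Eif2ak2, from -0.17 to 0.068 for Irf7, from -0.051 to 0.065 for Trim25, from -0.10 to 0.66 for Oas1g, from -0.020 to 0.75 for Oas2, from -0.095 to 0.20 for Oas3, from -0.23 to 0.54 for Ifit3, from -0.28 to 0.32 for Gbp5, from -0.59 to 0.12 for Rsad2, from -0.0047 to 0.17 for Samd9l, from -0.081 to 0.14 for Parp14 and from -0.12 to 0.19 for Rtp4. The cause was not tested. Replicate numbers gave no sign of pairing (correlations of same-numbered libraries -0.235, 0.0406, 0.0512 and -0.0507, with 1 of 4 libraries correlating best with its own number). The replicate block called 3 of the 39 higher and 4 lower (all genes 1895 and 2144), with Mx1 lost (adjusted p = 0.0561) and Isg15 gained (0.0451). Depth limits Mx1, Mx2, Oas1g and Oas2, which had under 200 counts in all 8 libraries together.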
